A study of Mus musculus with 12 samples.

Results

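Coenzyme Q (ubiquinone) is built in mitochondria by a short series of enzymes and helper proteins. The transcripts of 10 genes of this pathway are described here for BV2, a mouse microglial cell line in wide use: Pdss1, Coq2, Coq3, Coq4, Coq5, Coq6, Coq7, Coq8a, Coq8b and Coq9. Each was found by its gene symbol in the deposited tables, and together they are 10 of 24934 genes. The genes were chosen by measured values of these same libraries, the deposited counts and FPKM. Their levels and fold changes are therefore given as a description, with the error of each value and without a p-value for any member. Where members are counted as passing the threshold of the fit across all genes, the count describes that fit on the values that chose them and is no independent evidence.

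The 12 libraries fall into 3 groups of 4. Acacetin libraries came from cells given 10 µM acacetin, a plant flavone. OGD libraries came from cells deprived of oxygen and glucose and then re-oxygenated, which is a culture model of stroke. The Control label names no agent. The Acacetin label does not itself name OGD, but the design text places acacetin after deprivation and re-oxygenation, and the group was read in that way. Every group is the same single immortalised line, and no label tells whether a group's 4 libraries were separate cultures. If they were repeats of 1 culture, every p-value covers only technical spread. OGD against Control asks what differed after deprivation and re-oxygenation, and Acacetin against OGD asks what differed with the flavone. Acacetin against Control takes in deprivation and the flavone together, and it cannot tell them apart.

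Coenzyme Q carries electrons between complexes of the respiratory chain, and its reduced form also acts as an antioxidant in membranes. Its long isoprenoid tail is made from mevalonate products and joined to a benzoate ring. The ring is then methylated and hydroxylated by enzymes that work as a complex on the inner mitochondrial membrane. In microglia, as in other cells, the carrier serves oxidative phosphorylation and several dehydrogenases outside the main chain.

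Library depth ran from 16427886 to 32693066 counted reads. The ribosomal RNA gene Rn18s took 13.1% of reads in OGD 2 and 21.3% in OGD 3, against 0.137% to 1.86% elsewhere. Gene length was derived for each gene from the deposited counts and FPKM, not read from an annotation. The log2 deviation of a library from each gene's mean over the 12 libraries was regressed on log2 gene length. Its slope lay between -0.21 (Acacetin 1) and 0.29 (Acacetin 3). Of 13 microglia and macrophage marker genes, 12 passed the low-count filter, and the summed level of the list ran from 2968 to 4648 CPM in Acacetin, 3567 to 5159 CPM in OGD and 4046 to 4774 CPM in Control. CPM is a read count scaled to a common library size with TMM factors. Markers of neurons, astrocytes, oligodendrocytes and endothelium summed to at most 2.41 CPM per list in any library. P2ry12, which defines resting microglia in tissue, was at or below 0.23 CPM in every library.

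In OGD against Control, Coq8a was the member with the largest difference, 5.19-fold lower in OGD. Coq8b, Coq9 and Coq3 were also lower in OGD, and Pdss1 was higher. The remaining members, Coq2, Coq4, Coq5, Coq6 and Coq7, lay within 0.26 of 0 on the log2 scale. In Acacetin against Control every member lay on the same side of 0 as in OGD, with Coq2 at -0.00. In Acacetin against OGD all 10 members were within 0.16 of 0. These are bulk libraries, in which fewer cells that express a gene and less RNA per cell cannot be told apart.

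**Figure D1:**
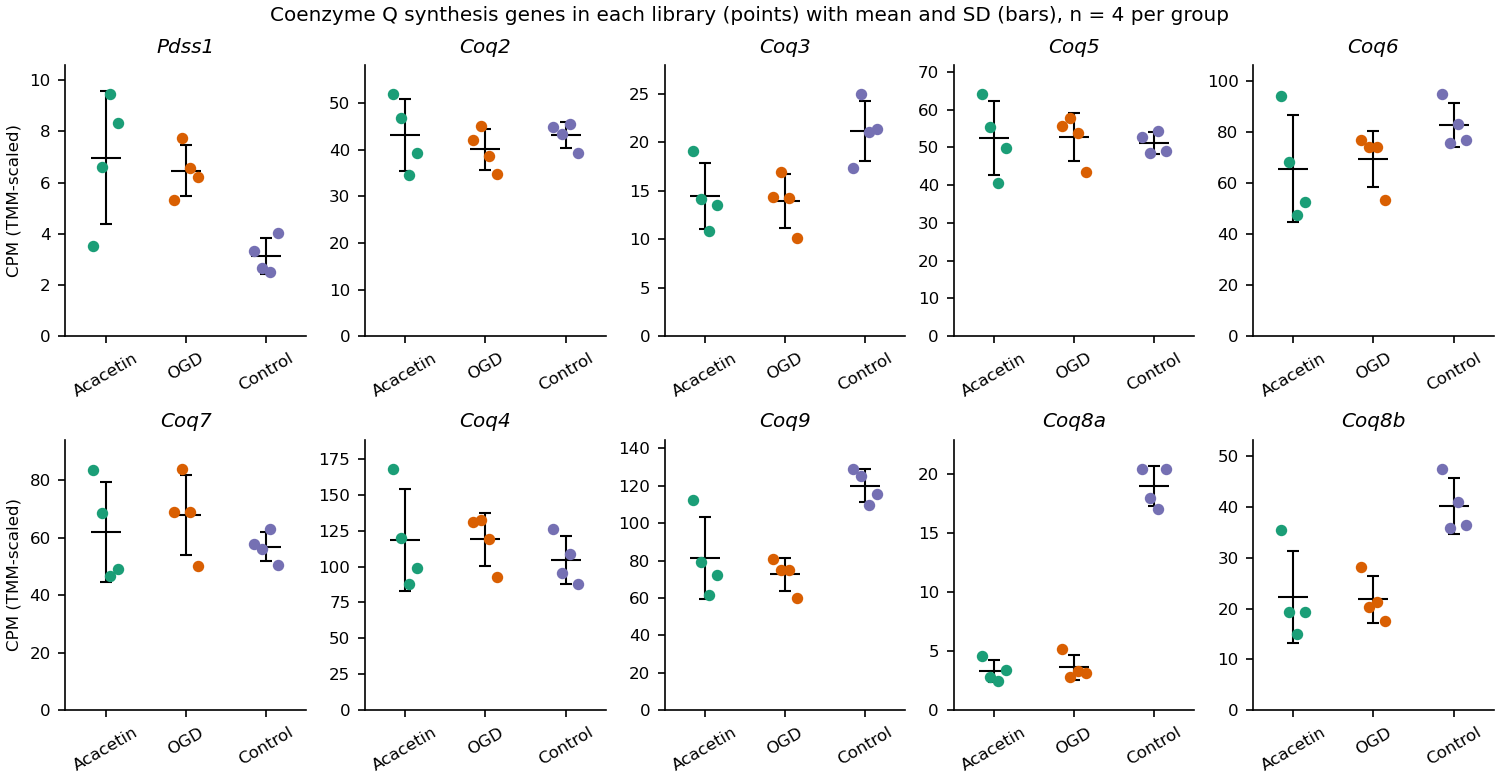
Level of each of the 10 genes in every library, in CPM on a linear axis that starts at 0. Points are single libraries of the Acacetin, OGD and Control groups, and the bars mark the mean and SD of 4 libraries. The 4 Control points of Coq8a, from 17.1 to 20.5 CPM, stand above all 8 Acacetin and OGD points, which reach 5.21 CPM at most.

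Calls required an adjusted p under 0.05 in edgeR's quasi-likelihood fit across all 13249 tested genes, and all 10 members were among those tested. In OGD against Control 5 of the 10 members were called, 1 higher and 4 lower. Across all tested genes 28.8% were called, 16.2% higher and 12.6% lower. The CPM ranges of the groups did not overlap for 5 of 10 members, against 36% of all tested genes. The median log2 fold change of the members was -0.18, and that of all tested genes was 0.03. Since the members were selected with values of these libraries known, nothing is read from the members' share.

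Against the same Control libraries, 4 of 10 members were called in Acacetin, 1 higher and 3 lower, where 26.9% of all tested genes were called, 14% higher and 12.9% lower. Ranges did not overlap for 2 members, Coq8a and Coq8b, against 25.7% of all tested genes. The median of the members was -0.17, against 0.08 for all tested genes. Both comparisons use the same 4 Control libraries, so their values for a member are given side by side and are not independent.

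In Acacetin against OGD no member was called, and 0% of all tested genes were. None of the 10 members had an unadjusted p under 0.05 in edgeR, where 5.17% of all tested genes did. DESeq2 called 0 members and 0.203% of all genes it tested, and limma called 0 members and 0% of all tested genes. The ranges of both groups overlapped for every member, while 2.35% of all tested genes did not overlap. The members' median was 0.01, against -0.02 for all tested genes.

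**Figure D2:**
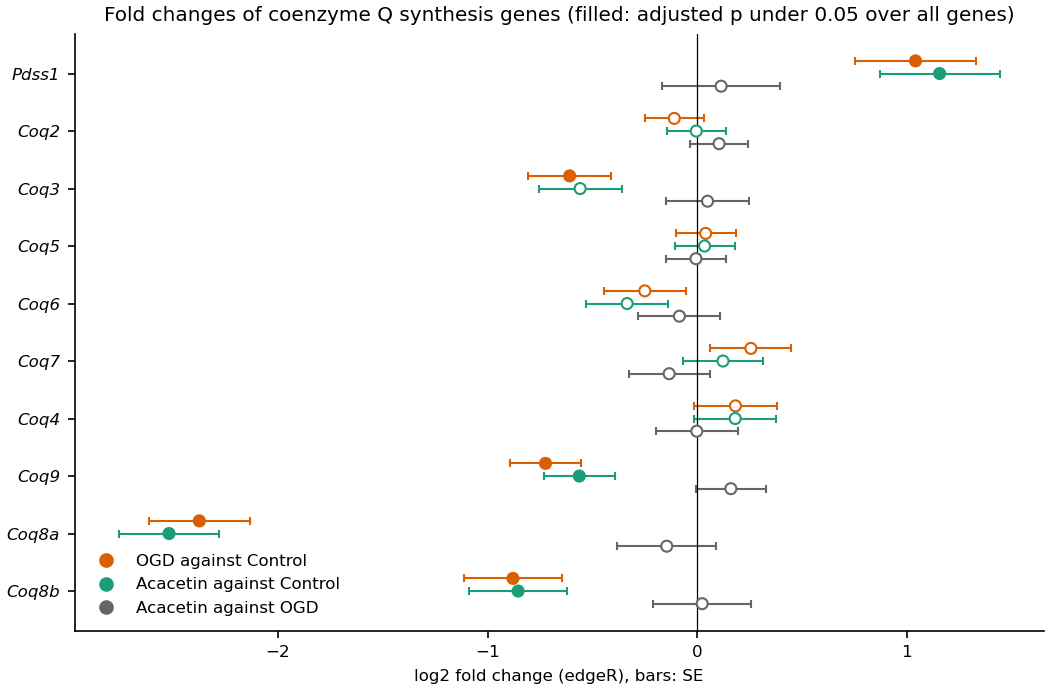
Log2 fold change of each gene from edgeR in the 3 comparisons, with bars of 1 SE. Filled points had an adjusted p under 0.05 over all tested genes. Coq8a lies at -2.38 and -2.52 against Control, Pdss1 at 1.04 and 1.16, and all 10 points of Acacetin against OGD are open and within 0.16 of 0.

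Pdss1 (ENSMUSG00000026784.15, chromosome 2) encodes a subunit of the synthase that makes the isoprenoid tail. It had 3.51, 6.61, 9.45 and 8.34 CPM in Acacetin 1 to 4. In OGD 1 to 4 it had 5.34, 7.74, 6.56 and 6.24 CPM, and in Control 1 to 4 it had 3.32, 2.65, 2.499 and 4.05 CPM. In CPM all 4 OGD libraries were above all 4 Control libraries, and 3 of the Acacetin libraries were too, while Acacetin 1 fell among the Control values. In FPKM, OGD 3 and Control 4 had the same value of 0.88.

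The Pdss1 log2 fold change was 1.04 ± 0.29 (SE) in OGD against Control, which is 2.06-fold. It was 1.16 ± 0.29 in Acacetin against Control, or 2.23-fold, and both were called. The OGD call was lost without OGD 2 and OGD 3, the libraries rich in ribosomal RNA (0.90), and without Control 2 (0.97). It was also lost with limma on log2 FPKM, where the change was 0.42 with 1 added and 0.81 with 0.1 added. Pdss1 is a low gene, listed at 0.63 ± 0.18 FPKM in Control, and an added 1 understates the change of such a gene. In Acacetin against Control the change ran from 0.64 to 1.37 in 19 alternatives without a fold limit. In the GENCODE annotation of GRCm38, Abi1 on the opposite strand shares 4.57% of the Pdss1 exon bases. Abi1 averaged 12.5 ± 4.4 CPM in Acacetin, 10.9 ± 1.7 CPM in OGD and 9.80 ± 2.76 CPM in Control. These means were above those of Pdss1 in every group. The Abi1 change was 0.15 ± 0.26 in OGD against Control (edgeR adjusted p = 0.711). Reads of both genes may not have been kept apart.

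Within the Acacetin group Pdss1 ran against the other members. It was lowest in Acacetin 1, the library with the most negative slope on gene length, and highest in Acacetin 3, the library with the most positive slope. In CPM the other 9 members were all highest in Acacetin 1, which had the lowest TMM factor of its group, 0.852. In FPKM, Coq2 was lowest in Acacetin 1 (14.69 FPKM), and Coq5, Coq7 and Coq8a were not highest there. Pdss1 was lowest in Acacetin 1 and highest in Acacetin 3 in FPKM too. With a length trend removed from every library the change of Pdss1 was 1.13 in Acacetin against Control and 0.98 in OGD against Control. The part of gene length in the spread within the Acacetin group was not tested.

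The promoter of Pdss1 is shown because this member was the one called higher. RefSeq places it on the plus strand at chr2:22895272-22895521 (GRCm38.p6), a build other than that of the counts, and the 250 bases before the start are printed 5′ to 3′ with motif matches in capitals.
Pdss1 promoter: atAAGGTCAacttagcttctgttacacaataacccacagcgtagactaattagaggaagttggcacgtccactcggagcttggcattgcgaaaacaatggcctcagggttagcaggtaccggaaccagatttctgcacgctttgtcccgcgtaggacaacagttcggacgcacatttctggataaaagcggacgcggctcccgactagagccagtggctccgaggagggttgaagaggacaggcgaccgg
The capitals mark a match to AAGGTCA, the site of the estrogen-related receptors (ERR). A match to AAGGTCA on either strand is present in 4.72% of 32851 mouse promoter windows of 300 bases. The last 50 bases of the window, after the start and not printed, hold the core CCGGAAG of ETS factors, which is in 8.86% of windows. The whole window is 56.7% G and C with 22 CpG dinucleotides, against medians of 52.7% and 7. A match is a run of letters and does not show that a factor binds.

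Pdss2 (ENSMUSG00000038240.14, chromosome 10) encodes the partner subunit of the same synthase and is not a member. It averaged 6.72 ± 1.00 CPM in Acacetin, 6.31 ± 1.55 CPM in OGD and 4.79 ± 1.08 CPM in Control (SD, n = 4 each). Its log2 fold change was 0.39 ± 0.23 in OGD against Control (edgeR adjusted p = 0.229) and 0.49 ± 0.23 in Acacetin against Control (adjusted p = 0.13), and neither was called. The ratio of Pdss1 to Pdss2 in FPKM, which is scaled by gene length, was 1.45 ± 0.54 in Acacetin, 1.47 ± 0.18 in OGD and 0.935 ± 0.229 in Control. OGD ratios ran from 1.28 to 1.70, all above the Control range of 0.684 to 1.24, while Acacetin ratios of 0.871 to 2.16 overlapped it.

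Coq2 (ENSMUSG00000029319.9, chromosome 5) encodes the membrane enzyme that joins the tail to the ring. It averaged 43.2 ± 7.7 CPM in Acacetin, 40.1 ± 4.4 CPM in OGD and 43.3 ± 2.8 CPM in Control. Its log2 fold change was -0.11 ± 0.14 in OGD against Control, with a 95% interval of -0.41 to 0.19. The groups overlapped in all 3 comparisons.

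Coq3 and Coq5 encode the methyltransferases of the ring, which act on oxygen and on carbon. Coq3 (ENSMUSG00000028247.3, chromosome 4) had 19.04, 14.2, 10.9 and 13.5 CPM in Acacetin 1 to 4. It had 14.3, 16.9, 14.2 and 10.1 CPM in OGD 1 to 4, and 17.4, 24.9, 21.0 and 21.4 CPM in Control 1 to 4. The highest OGD library lay just below the lowest Control library, and Acacetin 1 lay inside the Control range.

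Coq3 had a log2 fold change of -0.61 ± 0.20 in OGD against Control, which is 1.52-fold lower and was called. The Acacetin value was similar in size at -0.56 ± 0.20 and was not called. The OGD call was lost without Control 2 (-0.52), Control 3 (-0.61), OGD 1 (-0.63) or OGD 4 (-0.48), and with counts thinned to the smallest library (-0.54). A call in Acacetin against Control was gained in 7 of 19 alternatives without a fold limit, among them without Acacetin 1 (-0.72) and with DESeq2 (-0.56). Coq5 (ENSMUSG00000041733.11, chromosome 5) averaged 52.5 ± 9.9 CPM in Acacetin, 52.7 ± 6.3 CPM in OGD and 51.2 ± 2.8 CPM in Control. Its OGD change was 0.04 ± 0.14, with a 95% interval of -0.27 to 0.35.

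Coq6 and Coq7 encode hydroxylases of the ring, a flavin enzyme and an iron enzyme. Coq6 (ENSMUSG00000021235.14, chromosome 12) had 93.9, 68.3, 47.4 and 52.6 CPM in Acacetin 1 to 4. It had 76.8, 73.9, 74.0 and 53.1 CPM in OGD 1 to 4, and 94.7, 75.7, 83.0 and 76.7 CPM in Control 1 to 4. Only OGD 4 stood apart in its group, and the groups overlapped.

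The Coq6 change was -0.25 ± 0.20 in OGD against Control and -0.33 ± 0.20 in Acacetin against Control, neither called. Without Acacetin 1 the Acacetin change was -0.56 and was called. Coq7 (ENSMUSG00000030652.12, chromosome 7) averaged 62.0 ± 17.4 CPM in Acacetin, 68.0 ± 13.9 CPM in OGD and 56.8 ± 5.1 CPM in Control. Its change was 0.26 ± 0.19 in OGD against Control, with a 95% interval of -0.16 to 0.67, so its value lay opposite in sign to that of Coq6.

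Coq4 and Coq9 encode helper proteins of the complex. Coq4 (ENSMUSG00000026798.11, chromosome 2), needed for assembly of the complex, averaged 118.7 ± 35.5 CPM in Acacetin, 118.8 ± 18.4 CPM in OGD and 104.6 ± 16.8 CPM in Control. Its OGD change was 0.18 ± 0.20 and was not called. In the GENCODE annotation of GRCm38, 27.1% of its exon bases are shared with Trub2 on the opposite strand. Trub2 was higher in OGD by a log2 fold change of 0.71 ± 0.17 (edgeR adjusted p = 0.00713). The strand setting of the authors' read counting is not given in the sources used here, so reads of both genes may not have been kept apart.

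Coq9 (ENSMUSG00000031782.16, chromosome 8) encodes a lipid-binding protein that presents the intermediate to Coq7. Its levels were 112, 79.3, 61.6 and 72.2 CPM in Acacetin 1 to 4. They were 80.7, 75.2, 74.8 and 60.3 CPM in OGD 1 to 4, and 129, 125, 109.8 and 116 CPM in Control 1 to 4. Every OGD library was far below every Control library, whereas Acacetin 1 reached the low end of Control in CPM. In FPKM, Acacetin 1 (27.32) was below the lowest Control library (30.1).

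Coq9 had a log2 fold change of -0.72 ± 0.17 in OGD against Control, or 1.65-fold lower, and it ran from -0.88 to -0.64 in 19 alternatives without a fold limit. Acacetin against Control gave -0.56 ± 0.17, or 1.48-fold lower, and it was called. That call was lost in 8 of these 19 alternatives. They were limma on log2 FPKM with either added value (-0.44 and -0.45), a fit of only the 8 libraries compared (-0.55), and leaving out Control 1 (-0.53), Control 2 (-0.54), Acacetin 2 (-0.55), Acacetin 3 (-0.45) or Acacetin 4 (-0.51). Without Acacetin 1 it was called at -0.76. Coq9 and its partner Coq7 thus lay on opposite sides of 0 in both comparisons with Control, though Coq7 was not called.

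Coq8a and Coq8b encode paralogous proteins of an atypical kinase family with ATPase activity, needed for a stable biosynthetic complex. In humans, COQ8A is known for a form of inherited ataxia and COQ8B for a kidney disease. Coq8a (ENSMUSG00000026489.14, chromosome 1) had 4.61, 2.82, 2.501 and 3.39 CPM in Acacetin 1 to 4, from raw counts of 97, 97, 91 and 105 reads. It had 5.21, 2.85, 3.36 and 3.15 CPM in OGD 1 to 4, from 165, 57, 43 and 97 reads. In Control 1 to 4 it had 20.5, 18.002, 17.1 and 20.5 CPM, from 501, 434, 431 and 617 reads. The lowest Control library stood well above the highest of the other 8 libraries, OGD 1.

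Mean Coq8a was 3.33 ± 0.93 CPM in Acacetin, 3.64 ± 1.07 CPM in OGD and 19.02 ± 1.73 CPM in Control. The log2 fold change was -2.38 ± 0.24 in OGD against Control, with a 95% interval of -2.89 to -1.86. It was -2.52 ± 0.24 in Acacetin against Control, or 5.74-fold lower, with an interval of -3.04 to -2.005. Of the 19 alternatives without a fold limit, the smallest change in both, -1.40 for OGD and -1.36 for Acacetin, came with 1 added to FPKM, which understates the change of a low gene. Every other alternative gave at most -2.18 for OGD, including the one without OGD 2 and OGD 3. In Acacetin against OGD the change was -0.14 ± 0.24, with an interval of -0.65 to 0.36.

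The neighbour Cdc42bpa lies on 6.92% of the Coq8a exon bases, on the opposite strand. It averaged 1.90 ± 1.69 CPM in Acacetin, 0.97 ± 0.57 CPM in OGD and 1.41 ± 0.13 CPM in Control. Its level was thus below that of Coq8a in every group mean, and its OGD change was -0.49 ± 0.55 (edgeR adjusted p = 0.553).

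The promoters of Coq8a are shown because this member had the largest difference. RefSeq lists a pair of start sites on the minus strand of chromosome 1, and for each the 250 bases before the start are printed 5′ to 3′ (GRCm38.p6, chr1:180196021-180196270 for the upstream start and chr1:180193486-180193735 for the downstream start).
Coq8a upstream promoter: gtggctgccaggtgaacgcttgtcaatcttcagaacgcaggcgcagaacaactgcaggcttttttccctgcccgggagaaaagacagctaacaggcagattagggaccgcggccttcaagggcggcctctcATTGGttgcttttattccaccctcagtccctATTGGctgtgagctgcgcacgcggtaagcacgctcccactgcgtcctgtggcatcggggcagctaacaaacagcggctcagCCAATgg
Coq8a downstream promoter: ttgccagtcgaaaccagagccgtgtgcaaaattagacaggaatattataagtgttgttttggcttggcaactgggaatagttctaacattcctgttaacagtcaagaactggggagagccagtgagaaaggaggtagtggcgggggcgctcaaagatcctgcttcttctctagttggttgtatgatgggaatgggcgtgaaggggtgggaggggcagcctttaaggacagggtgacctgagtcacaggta
Capitals mark matches to the CCAAT box (CCAAT or its complement ATTGG), which is in 37.4% of all promoter windows, and the downstream window has no match to any of the 5 motifs searched. The upstream window of 300 bases is 61.7% G and C with 22 CpG dinucleotides, and the downstream one is 48.7% with 6. Of the 10 members, 8 had an entry in the RefSeq promoter table, with 10 windows. Of these windows 3 held CCAAT, 2 held CCGGAAG, and 1 each held AAGGTCA, the E-box CACGTG (7.15% of all windows) and the NRF1 core GCATGCGC (2.71% of all windows). The windows of Coq3 and Coq9 held none of the 5.

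Coq8b (ENSMUSG00000003762.14, chromosome 7) had 35.5, 19.4, 14.9 and 19.3 CPM in Acacetin 1 to 4. It had 28.3, 20.2, 21.3 and 17.5 CPM in OGD 1 to 4, and 47.6, 35.8, 40.9 and 36.4 CPM in Control 1 to 4. OGD and Control did not overlap. Acacetin 1 came just below the lowest Control library, and the other 3 Acacetin libraries were far below.

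The Coq8b change was -0.88 ± 0.24 in OGD against Control, or 1.84-fold lower, and -0.85 ± 0.24 in Acacetin against Control, or 1.81-fold lower. Both were called. The OGD call was lost without OGD 2 and OGD 3 (-0.81). The Acacetin call was lost without Control 1 (-0.76) or Acacetin 2 (-0.79), and the change was -1.17 without Acacetin 1.

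On the length-scaled FPKM values the balance of the paralogs differed between groups. The ratio of Coq8a to Coq8b was 0.164 ± 0.022 in Acacetin, 0.174 ± 0.022 in OGD and 0.506 ± 0.071 in Control (SD, n = 4 each). Acacetin ratios ran from 0.138 to 0.186 and OGD ratios from 0.146 to 0.194, and both stayed below the Control range of 0.441 to 0.595. The ratio is taken within a library, so a depth factor common to both genes does not enter it.

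The order of the members by FPKM also differed. Ranks between genes rest on the lengths used for FPKM, and Coq4 reads may not have been kept apart from those of Trub2. In Control, Coq9 came first at 33.4 ± 2.3 FPKM, above Coq4 at 26.1 ± 3.1 FPKM, with no overlap. Coq4 overlapped Coq6 (22.3 FPKM), Coq5 (14.3 FPKM) overlapped Coq2 (14.01 FPKM), and Coq7 followed at 7.50 FPKM. Coq8b (6.10 FPKM) and Coq3 (6.03 FPKM) overlapped, and Coq8a (3.07 ± 0.39 FPKM) was clear of Pdss1 (0.63 ± 0.18 FPKM), the lowest member.

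In OGD, Coq4 came first at 27.0 ± 5.8 FPKM and overlapped Coq9 at 18.5 ± 4.2 FPKM. Every pair of neighbours from Coq4 down through Coq9, Coq6, Coq5, Coq2 and Coq7 overlapped there. Coq3 (3.54 FPKM) and Coq8b (3.07 FPKM) overlapped as well, and Coq8a, at 0.55 ± 0.24 FPKM, was last and below Pdss1 at 1.18 ± 0.27 FPKM without overlap. In Acacetin the order was the same as in OGD. There Coq4 (31.9 ± 3.5 FPKM) was clear of Coq9 (24.4 ± 2.1 FPKM), and Pdss1 (1.63 ± 0.81 FPKM) overlapped Coq8a (0.58 ± 0.09 FPKM). Relative to the average of the 12 libraries, the depth behind the FPKM of OGD 3 was 1.17 times its counted depth. A larger depth lowers all FPKM values of a library alike and leaves the order within that library as it is.

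In CPM, most members of each library lay on the same side of their group means. In Acacetin 1, 9 of 10 members were above their group mean, with a median deviation of 0.48 on the log2 scale. In Acacetin 3, 1 of 10 was above, with a median of -0.37, and that 1 was Pdss1. OGD 4 had 0 of 10 above its group mean, with a median of -0.28 and a gene length slope of 0.17. Control libraries had medians from -0.08 to 0.11. The SD of log2 CPM over 4 libraries had a median over members of 0.39 in Acacetin, 0.24 in OGD and 0.14 in Control. This order of Acacetin and OGD belongs to the TMM-scaled CPM, with factors from 0.852 (Acacetin 1) to 1.32 (Acacetin 3) in the Acacetin group. The SD of FPKM was larger in OGD than in Acacetin for every member except Pdss1. It was 2.69 against 0.73 FPKM for Coq2, and 0.27 against 0.81 FPKM for Pdss1.

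**Figure D3:**
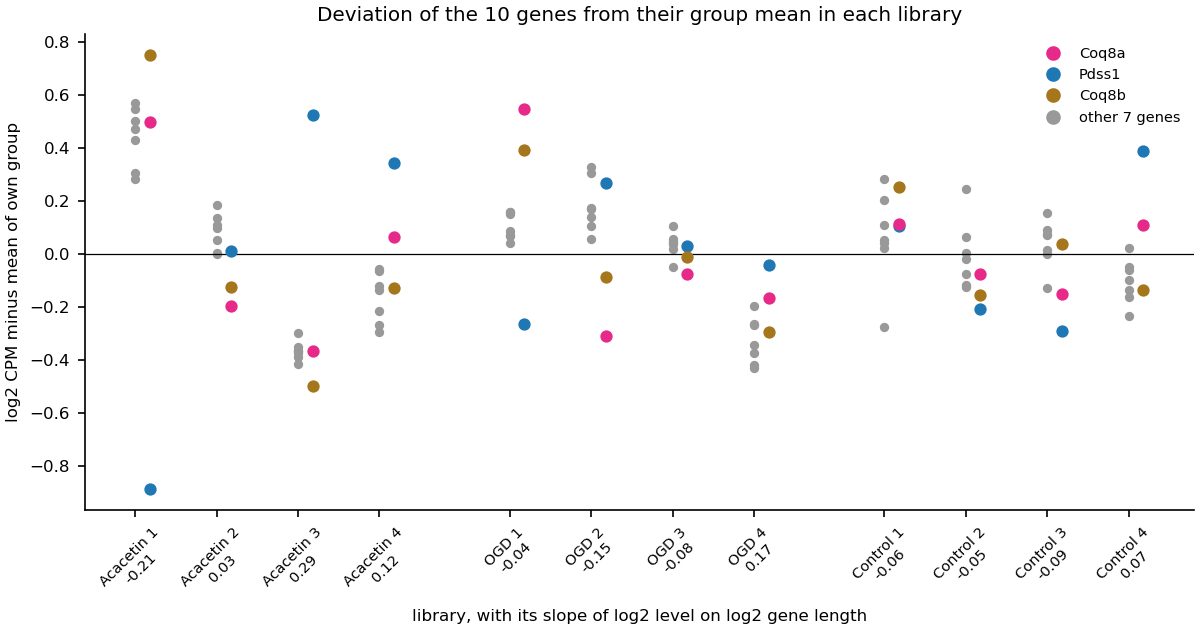
Deviation of the log2 CPM of each of the 10 genes from the mean of its own group, per library. Under each library name is its slope on log2 gene length, taken from the log2 deviations from each gene's mean over all libraries. Colours mark Coq8a, Pdss1 and Coq8b, and grey points are the other members. Acacetin 1 has 9 of 10 genes above 0 with Pdss1 far below, and Acacetin 3 has the reverse.

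The largest 95% upper bounds in Acacetin against OGD were 0.72 for Pdss1 (change 0.11, interval from -0.49), 0.53 for Coq8b (change 0.02, interval from -0.48) and 0.52 for Coq9 (change 0.16, interval from -0.20). The lowest bounds were -0.65 for Coq8a, -0.55 for Coq7 (change -0.13, interval to 0.28) and -0.50 for Coq6 (change -0.08, interval to 0.34). No member had an interval that left out 0, and the data are compatible with differences of the sizes inside these intervals. The members' values in Acacetin against OGD stayed within -0.34 to 0.42 in the 20 alternatives. With limma on FPKM plus 0.1 the median over all tested genes was itself 0.24 in this comparison, 0.17 in Acacetin against Control and -0.11 in OGD against Control.

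Genes that share the pattern of the most changed members were ranked by the root mean square difference of centred log2 CPM over the 12 libraries, where 0 is an identical pattern. For Coq8a the nearest were Hmcn2 (0.168), Ltc4s (0.199) and Gm20507 (0.204). For Pdss1 they were Tra2b (0.164), Eed (0.186) and Abcb1b (0.197). For Coq8b they were Bckdha (0.0764), Coro1b (0.0796) and Pcbp4 (0.0805). The 12 libraries share their group structure and depth scaling, so such likeness is a description of levels only.

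Other genes around coenzyme Q were counted in 4 lists, of which 43 of 47 genes were tested. Of 9 tested genes for further coenzyme Q proteins and relatives, 0 were called higher and 3 lower in OGD against Control, with a median log2 fold change of 0.03. Of all tested genes 16.2% were called higher and 12.6% lower. Adck2 (ENSMUSG00000046947.13, chromosome 6), a relative of Coq8a, averaged 3.53 ± 0.57 CPM in Acacetin, 3.51 ± 0.72 CPM in OGD and 9.78 ± 1.43 CPM in Control. Its log2 fold change was -1.47 ± 0.22 in OGD (edgeR adjusted p = 0.000357) and -1.47 ± 0.22 in Acacetin (adjusted p = 0.000552), both against Control.

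Coq10a (ENSMUSG00000039914.7, chromosome 10) encodes a protein that binds finished coenzyme Q. It averaged 22.4 ± 6.3 CPM in Acacetin, 20.9 ± 3.7 CPM in OGD and 38.1 ± 0.6 CPM in Control. It was lower against Control, with a change of -0.87 ± 0.19 in OGD (edgeR adjusted p = 0.00356) and of -0.77 ± 0.19 in Acacetin (adjusted p = 0.00851). Its paralog Coq10b (ENSMUSG00000025981.14, chromosome 1) lay the other way, at 0.52 ± 0.31 in OGD (adjusted p = 0.245) and 0.98 ± 0.31 in Acacetin (adjusted p = 0.0324). The Acacetin call of Coq10b was lost in 9 of 19 alternatives without a fold limit. Fdxr (ENSMUSG00000018861.9, chromosome 11), whose enzyme passes electrons to ferredoxin, fell by 0.80 ± 0.20 in OGD (edgeR adjusted p = 0.00896) and by 0.89 ± 0.20 in Acacetin (adjusted p = 0.00598).

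Of the 12 genes of mevalonate and isoprenoid supply, 2 were called higher and 2 lower in OGD against Control (median -0.36). Among all tested genes 16.2% were called higher and 12.6% lower. In Acacetin against Control 2 were called higher and 1 lower (median -0.07), against 14% and 12.9% of all tested genes. The kinase genes Mvk and Pmvk, which act in succession on mevalonate, fell by 0.96 ± 0.24 and 0.90 ± 0.22 in OGD (edgeR adjusted p = 0.00762 and 0.00763). Acat2, a thiolase gene at the entry of the pathway, and Ggps1, the geranylgeranyl diphosphate synthase gene, rose by 0.51 ± 0.16 and 0.66 ± 0.21 (adjusted p = 0.0277 and 0.0285). The calls of Acat2 and Ggps1 were lost in 8 and 10 of the 19 alternatives without a fold limit, including without OGD 2 and OGD 3 (0.32 and 0.49).

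For Acacetin, again against Control, Mvk fell by 0.78 ± 0.23 (edgeR adjusted p = 0.024), and Pmvk was at -0.62 ± 0.22 (adjusted p = 0.0515). Acat2 rose by 0.60 ± 0.16 (adjusted p = 0.0148). Nus1, a subunit gene of the dolichol chain synthase, was at 0.39 ± 0.14 (adjusted p = 0.0471), a call lost in 11 of the same 19 alternatives. The call of Mvk was lost in 5 of them, each without 1 library: Control 1 (-0.68), Control 3 (-0.76), Acacetin 2 (-0.77), Acacetin 3 (-0.65) or Acacetin 4 (-0.67). Pmvk gained a call in 11 of them, among them DESeq2 (-0.63) and leaving out Acacetin 1 (-0.89) or Control 4 (-0.67). Acat2 lost its call in 1, without Acacetin 2 (0.53).

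Of 12 tested genes for enzymes that reduce quinones, 1 was called higher and 1 lower in both comparisons with Control. The medians were -0.30 in OGD and -0.22 in Acacetin. Across all tested genes 28.8% were called in OGD and 26.9% in Acacetin. Sqor (ENSMUSG00000005803.15, chromosome 2), which encodes an enzyme that oxidises sulfide and passes the electrons to coenzyme Q, had 29.1, 23.3, 19.4 and 28.9 CPM in Acacetin 1 to 4 and 27.2, 27.7, 30.6 and 20.3 CPM in OGD 1 to 4. Control 1 to 4 had 61.1, 72.4, 64.3 and 76.6 CPM, all above the other 8 libraries. Its log2 fold change was -1.38 ± 0.16 in OGD (edgeR adjusted p = 0.000128) and -1.45 ± 0.16 in Acacetin (adjusted p = 0.000141).

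Nqo1 (ENSMUSG00000003849.9, chromosome 8), the cytosolic quinone reductase gene, had 12.1, 19.1, 9.18 and 9.02 CPM in Acacetin 1 to 4. It had 5.75, 12.7, 9.06 and 6.07 CPM in OGD 1 to 4, and 2.66, 3.07, 2.54 and 2.65 CPM in Control 1 to 4. It was higher by 1.61 ± 0.30 in OGD (edgeR adjusted p = 0.00144) and by 2.18 ± 0.30 in Acacetin (adjusted p = 0.000456). In Acacetin against OGD it was at 0.56 ± 0.29 (adjusted p = 0.83), and the groups overlapped.

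Complex III takes electrons from reduced coenzyme Q. Of its 10 genes 0 were called in OGD against Control by edgeR, against 28.8% of all tested genes, with a median of -0.17. In edgeR 1 of the 10 had an unadjusted p under 0.05, where 39.3% of all tested genes did. That cut was passed by 4 of 9 tested coenzyme Q relatives, 8 of 12 mevalonate supply genes and 5 of 12 quinone-reducing enzyme genes. In Acacetin against Control 1 of the 10 was called, against 26.9% of all tested genes: mt-Cytb, the only complex III gene encoded in mitochondrial DNA. It averaged 1093 ± 222 CPM in Acacetin, 717 ± 67 CPM in OGD and 555 ± 228 CPM in Control, with a change of 0.98 ± 0.26 (adjusted p = 0.0124). In Acacetin against OGD none of the 43 tested genes of the 4 lists was called by edgeR, DESeq2 or limma. DESeq2 called 0.203% of all genes it tested there, and edgeR and limma called 0%. Of the 43, 1 had an unadjusted p under 0.05 in edgeR, where 5.17% of all tested genes did. It was mt-Cytb, at 0.61 ± 0.25, and its groups did not overlap, as for 2.35% of all tested genes.

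**Figure D4:**
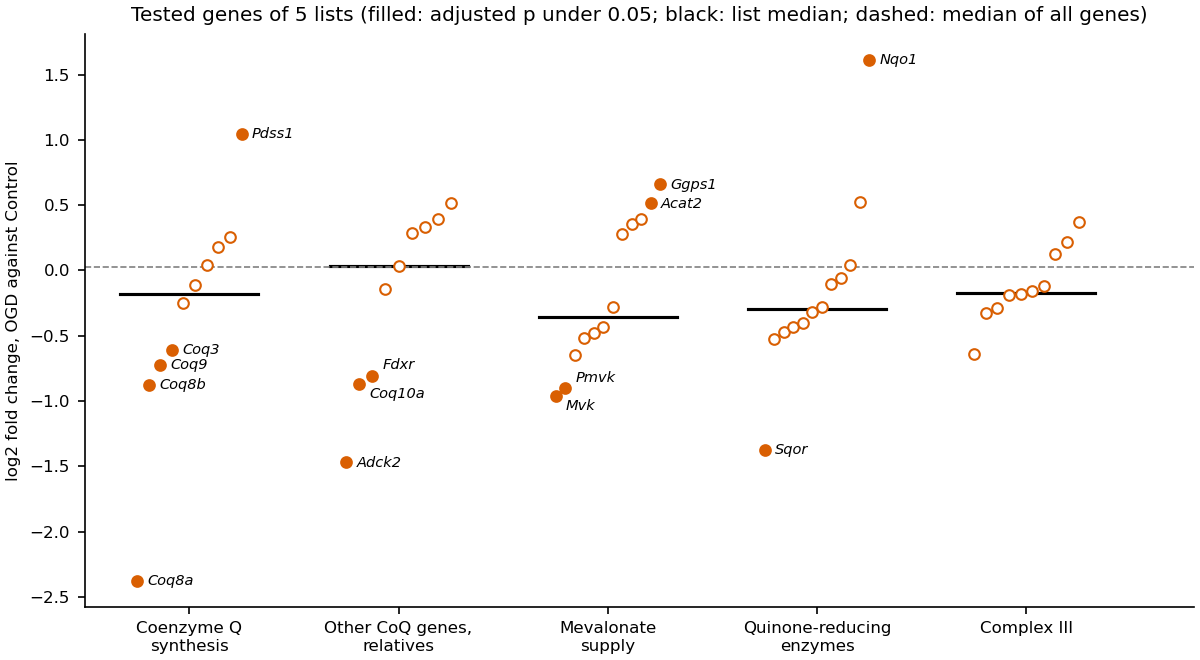
Log2 fold change in OGD against Control for every tested gene of the 5 lists, sorted within each list. Filled, named points had an adjusted p under 0.05. Black bars are list medians and the dashed line is the median of all tested genes at 0.03. Coq8a is the lowest point at -2.38 and Nqo1 the highest at 1.61.

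**Figure D5:**
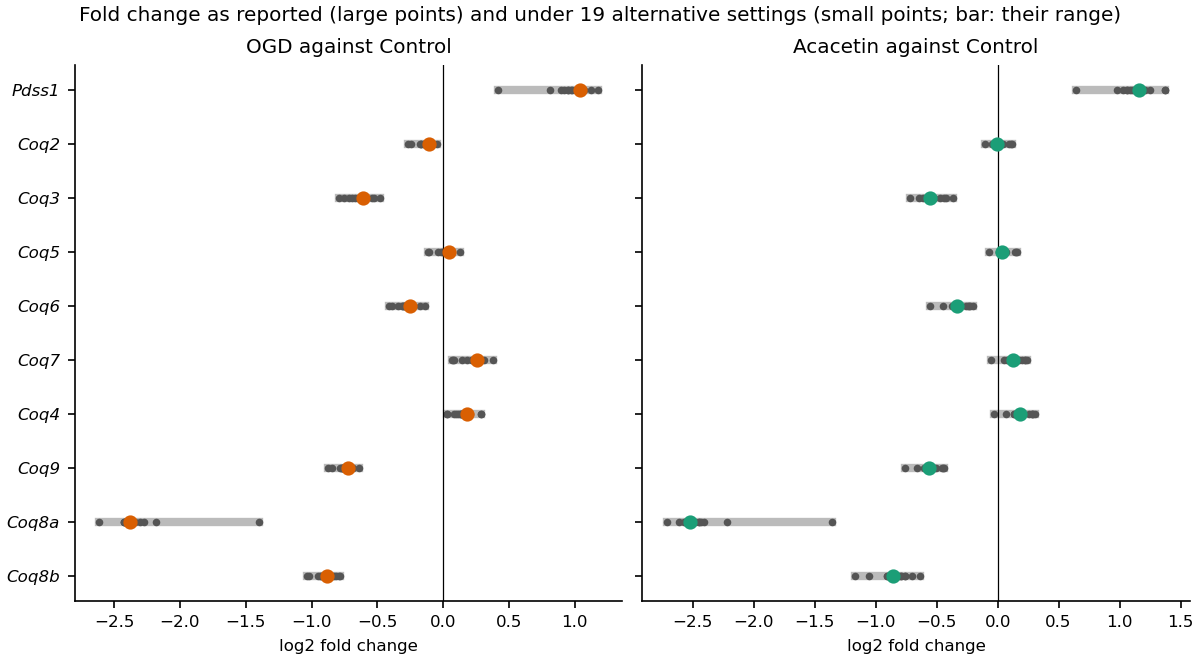
Log2 fold change of each gene against Control as reported (large points) and under 19 alternative settings (small points, with a grey bar over their range), for OGD at left and Acacetin at right. Coq8a ran from -2.61 to -1.40 in OGD against Control, and Pdss1 from 0.42 to 1.17, while Coq5 crossed 0.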

How the data were processed

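Stranded mRNA libraries from 12 BV2 samples were read as pairs, per the labels. Tools named are HISAT2, bcl2fastq and DESeq2, with the build GRCm39 and no versions, per the submitters' processing notes. Which program counted reads, on which annotation and strand, is not given in the sources used here. Raw read counts per gene were deposited, and the authors' deposited FPKM values are scaled by gene length and depth.

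From the counts, edgeR 4.0.16 in R 4.3.3 was run on genes kept by filterByExpr (minimum count 10, minimum total 15), with TMM scaling and 1 mean per group over all 12 libraries. Tests were two-sided, with Benjamini-Hochberg adjustment over 13249 genes. The procedure was tested on simulated counts. Intervals of fold changes are 95% intervals of that fit, and depth limits counting error only. The members, lists, naming rule and alternatives were chosen with earlier results of these data known. The rule names all members, every called gene of the 4 lists, and Pdss2, Coq10a and Coq10b. Alternatives were DESeq2 1.42.0, its size factors, other filters, a fold limit, fewer libraries, a replicate block, thinned counts, removal of a gene length trend, and limma 3.58.1 on log2 FPKM with 1 or 0.1 added.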

Additional observations from a re-analysis of the deposited data

Results flagged for a closer look

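Of 69 groups of 4 libraries checked for a library far from the other 3, 2 were marked, where chance marks about 1 in 20. Coq6 was 53.1 CPM in OGD 4, and on the log2 CPM scale the gap to the next library was 0.898 of the group's range. The other 3 OGD libraries lay between 73.9 and 76.8 CPM. OGD 4 also held all 10 members below their group mean and had a gene length slope of 0.17, and the part of either in the Coq6 value was not tested. Adck2 was 7.66 CPM in Control 3, with a gap of 0.898 of the range on the same log2 scale, while the other 3 Control libraries lay between 10.4 and 10.7 CPM. That value was still above all 8 Acacetin and OGD libraries.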

How the results depend on the processing

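Shares in parentheses are those of all tested genes called under the same setting. Members called numbered 5 in OGD against Control (28.8%) and 4 in Acacetin against Control (26.9%). A fold limit (log2 fold change beyond 1 in either direction) left 2 in each (11.6% and 10.9%), and leaving out OGD 2 and OGD 3 left 3 in the first (14.5%). Leaving out 1 library gave 3 to 5 in OGD against Control, with 3 without Control 2 (20.8%). It gave 2 to 6 in Acacetin against Control, with 2 without Control 1 (19.2%) or Acacetin 2 (18.2%) and 6 without Acacetin 1 (43.1%). Acacetin against OGD gave 0 members in all of these, with at most 0.0667% of all tested genes called (without Acacetin 1). Genes of the 4 further lists called in OGD against Control numbered 9, and 14 with DESeq2 (25.6%), 3 with the fold limit, 18 in a fit of only the 8 libraries (38%), 16 with a replicate block (34.5%), 15 and 14 with limma on log2 FPKM plus 1 or 0.1 (21.4% and 21.9%), and 14 with the gene length trend removed (33.4%). Leaving out 1 library gave 7 to 10. In Acacetin against Control they numbered 10, and 3 with the fold limit, 18 with a replicate block (32.3%), 18 without Acacetin 1 and 3 (28.9%), and 6 to 26 on leaving out 1 library, with 6 without Acacetin 2 and 26 without Acacetin 1. The cause of these differences was not tested, except that fewer samples entered some fits and the fold limit by construction removes calls. No result changed its sign while called. Same-numbered libraries of different groups did not all deviate together (correlations from -0.29 to 0.51), so the numbers were not taken as pairs. With the replicate block 5 members were called in OGD against Control (34.5%) and 5 in Acacetin against Control (32.3%). In Acacetin against OGD it gave 0 members (0.0151%). A member of low level, such as Coq8a with 43 reads in OGD 3, has the largest counting error.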
